A study of Mus musculus with 24 samples.

Results

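The genes flanking Ppara on mouse chromosome 15 were followed in mice that lack PPARα, the nuclear receptor that Ppara encodes. They were 10 genes, chosen by their place around Ppara in the annotation, with earlier results of these data known. They were measured by 22 of the 45037 probe sets tested. They made up 10 of the 18193 genes with a probe set of their own. Another 11 measured genes within 30 gene positions of Ppara were not members and are described apart. Of these, Cdpf1 and Pkdrej lie nearer to Ppara than any member. Every probe set that the array's probe table gave to a member alone was used, and 0 were shared with another gene. Along the chromosome, by order in the RefSeq annotation of GRCm38.p6, Nup50, Fbln1, Atxn10 and Wnt7b lie 26, 14, 12 and 8 gene positions before Ppara. Ttc38, Trmu, Celsr1, Gramd4, Cerk and Tbc1d22a lie 3, 5, 6, 9, 11 and 14 gene positions after it. A gene position counts annotated genes of any kind and is no distance in bases.

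RNA came from livers and hearts of Ppara knockout (KO) and wild-type (WT) SV129 mice of both sexes, 10 to 12 weeks old and killed at zeitgeber time 14, counted from lights on. RNA of 4 animals was combined for every array, and each of the 8 combinations of tissue, sex and genotype was covered by 3 pools, for 24 arrays in all. KO pools are numbered 10 to 12 in females and 4 to 6 in males, and WT pools 7 to 9 in females and 1 to 3 in males. The labels describe neither the deleted segment of Ppara nor how the KO line was made and bred. Pooling hides the spread between animals, so each p-value speaks of the spread between pools of 4, and in whole tissue fewer cells of a type and less RNA per cell cannot be told apart.

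PPARα binds fatty acids and switches on genes of fatty acid oxidation in liver and heart, as a partner of the retinoid X receptor on DNA elements built from the hexamer AGGTCA. A targeted allele is inherited together with the DNA on either side of it, and the genes next to a targeted locus can therefore differ between mutant and control animals apart from the function of the gene that was targeted. The comparison of KO with WT for the neighbours of Ppara describes such differences. In it, linked DNA and the loss of PPARα cannot be told apart. The 10 neighbours serve unrelated roles, in the nuclear pore, the extracellular matrix, cell signalling, tRNA modification and lipid phosphorylation among others.

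The start regions of the 10 genes were searched for the PPARα hexamer in the RefSeq sequences of GRCm38.p6, each from 250 bases before to 50 bases after a start. A sequence was at hand for 8 of the 10 genes, with 12 annotated starts. AGGTCA, on either strand, was present in 2 of the 12 starts, those of Cerk and Tbc1d22a, and in 16.3% of all 32851 promoters of the table. The direct repeat of the hexamer with any 1 base between its copies, also searched on both strands, was in 0 of the 12 starts and in 0.0396% of all promoters. Both promoters with a hexamer are printed 5′ to 3′ on the strand of their gene, with the hexamer or its complement in capitals, and the promoter of 5031439G07Rik, a neighbour that lies 25 positions before Ppara, is printed beside them. They lie at chr15:86186092-86186391 on the minus strand (Cerk), chr15:86277425-86277724 on the plus strand (Tbc1d22a) and chr15:84987922-84988221 on the minus strand (5031439G07Rik).
Cerk: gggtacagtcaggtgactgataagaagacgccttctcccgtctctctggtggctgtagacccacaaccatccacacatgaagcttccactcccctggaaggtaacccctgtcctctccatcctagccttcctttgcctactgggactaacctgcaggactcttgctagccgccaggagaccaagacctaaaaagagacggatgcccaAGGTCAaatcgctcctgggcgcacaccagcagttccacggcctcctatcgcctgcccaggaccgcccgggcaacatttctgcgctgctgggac
Tbc1d22a: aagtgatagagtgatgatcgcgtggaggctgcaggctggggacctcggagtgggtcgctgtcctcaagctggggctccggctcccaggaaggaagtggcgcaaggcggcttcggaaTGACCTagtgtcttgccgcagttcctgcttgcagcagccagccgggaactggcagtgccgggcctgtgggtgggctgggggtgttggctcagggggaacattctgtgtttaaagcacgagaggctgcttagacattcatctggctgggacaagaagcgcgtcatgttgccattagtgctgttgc
5031439G07Rik: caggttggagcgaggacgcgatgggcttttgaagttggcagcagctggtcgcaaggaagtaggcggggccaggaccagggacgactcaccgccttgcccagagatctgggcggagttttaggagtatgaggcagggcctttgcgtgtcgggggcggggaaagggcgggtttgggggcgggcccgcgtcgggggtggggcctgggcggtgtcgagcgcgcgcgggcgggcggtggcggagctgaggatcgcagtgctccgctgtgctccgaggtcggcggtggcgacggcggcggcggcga
The hexamer of Cerk starts 43 bases before the annotated start and that of Tbc1d22a 134 bases before it. The sequence of 5031439G07Rik holds no hexamer in this window.

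On all 3 of its probe sets Ppara fell in KO in each tissue and sex, and the KO and WT pools never overlapped. Signal remained in KO, with group means of 6.09 to 7.43 in liver and 5.33 to 6.38 in heart. The medians of all probe sets were 2.45 and 3.03, so the fall does not show an absence of the transcript. In female livers the difference, KO minus WT in log2 intensity, was -0.84, -1.05 and -1.11 (limma adjusted p = 0.00938, 0.00136 and 0.00322), and in male livers it was -0.90, -1.12 and -1.25 (adjusted p = 0.00697, 0.000938 and 0.00162). In female hearts the 3 differences were -1.51, -1.53 and -1.10, and in male hearts -1.06, -1.25 and -1.08. The largest limma adjusted p of the 6 heart values was 0.0017. These are the sizes at the targeted gene itself, and no size for a neighbour follows from them. The first probe set lost its call in female liver when the 6 compared arrays were fitted alone (adjusted p = 0.218), and in male liver without WT pool 3 (adjusted p = 0.0522).

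Labels and tissue were checked on markers. The mean of the hepatocyte list (5 of 6 genes measured) was 12.75 to 13.05 in livers, and the mean of the cardiomyocyte list (6 of 6) was 13.03 to 13.18 in hearts and at most 2.44 in livers. Heart KO pools 4 and 10 stood apart: pool 4, a male pool, read 6.62 for Xist, where the other male hearts were at most 3.12, and pool 10, a female pool, read 3.34 for Eif2s3y, where the other female hearts were at most 2.50. In male livers the Y-linked Eif2s3y read 3.43, 3.08 and 4.46 in KO pools, against 5.18, 4.73 and 4.99 in WT pools, so every KO pool was lower, while Xist was at most 2.07 in these 6 pools. The relation of Eif2s3y to the male liver results, those of Wnt7b and 5031439G07Rik included, was not tested. Heart pool 10 also had a hepatocyte mean of 4.86, against 3.18 to 3.74 in the other 11 hearts. Heart pool 4 had a skeletal muscle list mean (8 of 8 genes) of 4.70, against at most 3.97 in the other hearts. Heart results were therefore also computed without pools 4 and 10. Array medians were 2.43 to 2.49 in liver and 3.01 to 3.07 in heart. The tissues were taken as normalized apart, and no level was set across them.

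Of the 22 probe sets of the 10 flanking genes, 0 passed the test in any of the 10 comparisons made. At a limma adjusted p under 0.05 the count was 0 of 22 in female liver, where 0.480% of all probe sets passed, and 0 of 22 in male liver, where 0.344% passed. It was 0 of 22 in female heart, with 0.311% of all probe sets, and in male heart, with 0.275%. With the sexes averaged the count was also 0 in liver, where 0.797% of all probe sets passed, and in heart, where 0.528% did. At these shares less than 1 call among 22 probe sets is the background, so the counts of 0 do not set the neighbours apart from other genes, and the sizes of the differences carry more.

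The differences were small. Over the 22 probe sets they ranged from -0.25 (Fbln1) to 0.17 (Tbc1d22a) in female livers, from -0.40 (Nup50) to 0.27 (Trmu) in male livers, from -0.21 (Celsr1) to 0.15 (Gramd4) in female hearts and from -0.14 (Atxn10) to 0.21 (Celsr1) in male hearts. The median over the probe sets was 0.0062, -0.015, -0.014 and -0.0014 in that order, against -0.0030, 0.0080, -0.0031 and -0.00083 over all probe sets. The median size regardless of sign was 0.046, 0.12, 0.060 and 0.079, against 0.065, 0.079, 0.073 and 0.072 over all probe sets. All 22 intervals of 95% lay inside 1 log2 unit, a doubling or halving, in each of the 10 comparisons. They lay inside 0.5 log2 units for 21 of 22 probe sets in female livers, 18 in male livers, 20 in female hearts and 21 in male hearts. Of the 22 probe sets, 6 in liver and 5 in heart had a mean under the median of all probe sets of the tissue. For these a narrow interval does not bound a change in RNA, since a change could be missed there. The plot of differences by probe set shows the members around 0 with Ppara to their left in all 4 panels.

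**Figure D1:**
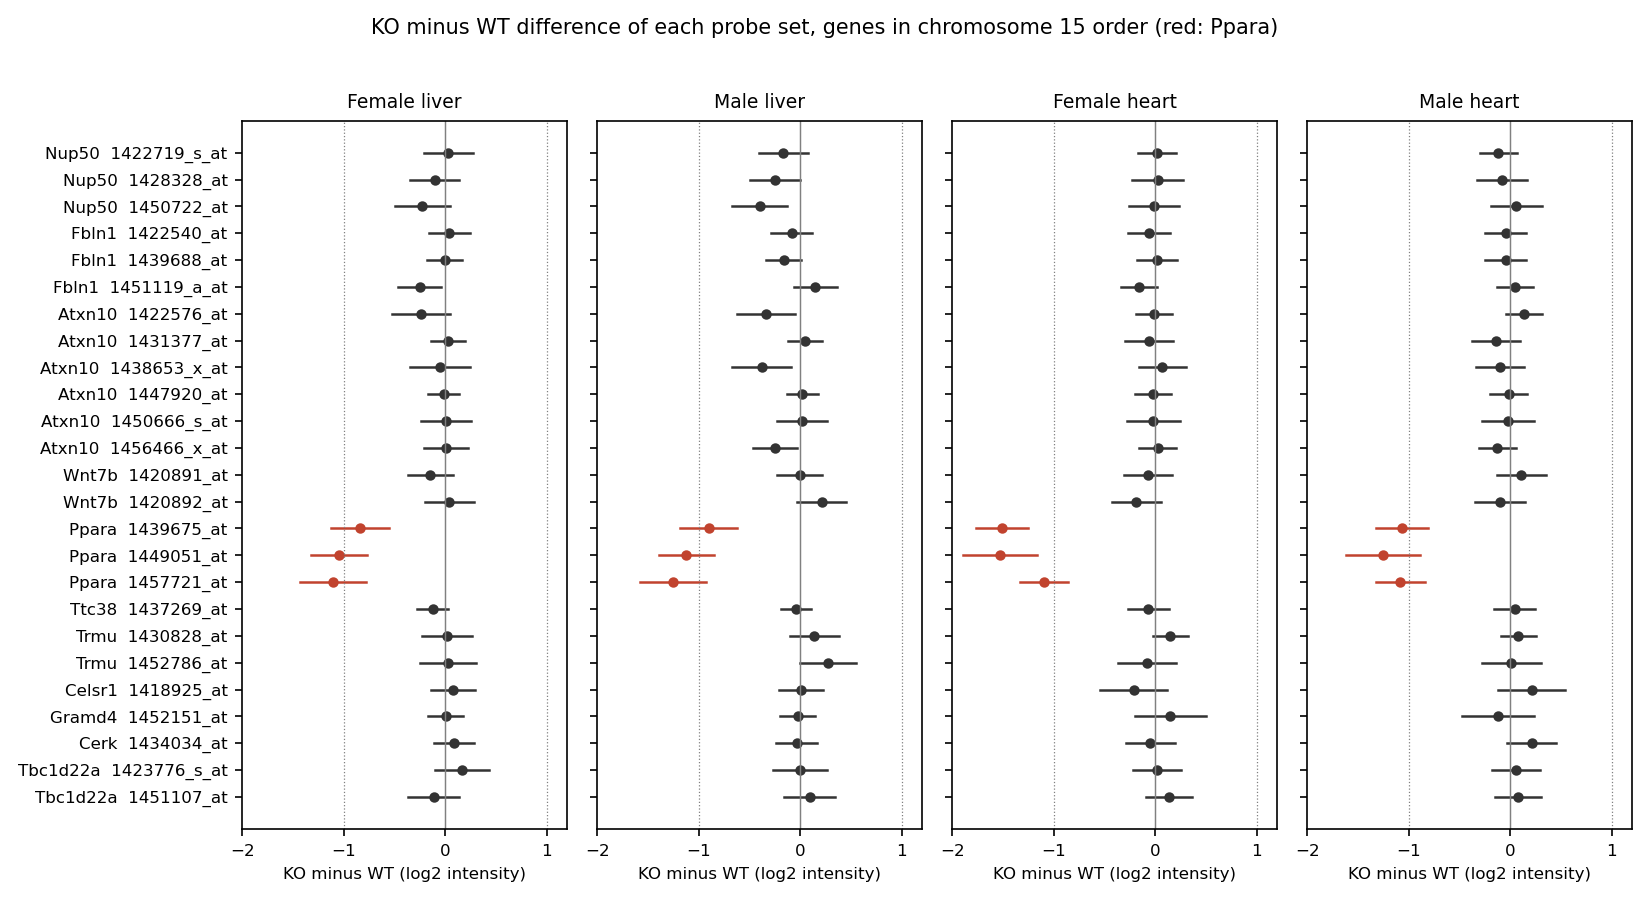
KO minus WT difference in log2 intensity (horizontal axis) of each probe set of Ppara (red) and of the 10 flanking genes (black), in chromosome order from top to bottom, in female liver, male liver, female heart and male heart. Points are limma estimates over 3 KO and 3 WT pools, bars are 95% intervals, dotted lines mark 1 log2 unit, and all 22 flanking probe sets stay inside them while the 3 Ppara probe sets lie between -0.84 and -1.53.

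Before adjustment, 5 of 22 probe sets (22.7%) had p under 0.05 in male livers, where 8.51% of all probe sets did, and all 5 were lower in KO. They belonged to Nup50 (2 probe sets) and Atxn10 (3 probe sets). In female livers 1 of 22 did (Fbln1, lower in KO), where 5.69% of all probe sets did. In hearts 0 of 22 did in either sex, where 6.33% of all probe sets in females and 5.80% in males did. With the sexes averaged 4 of 22 did in liver (18.2%, Nup50 and Atxn10, all lower in KO), where 8.83% of all probe sets did, and 0 of 22 in heart, where 6.64% did. The male and sexes-averaged liver counts share the same male pools.

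The pools themselves were also compared without a model. In male livers the 3 KO pools lay under the 3 WT pools for 5 of 22 probe sets, which 7.78% of all probe sets did, and above them for 1 of 22, which 7.79% did. In female livers 2 of 22 lay under (5.17% of all) and 0 above (4.49%). In female hearts 2 of 22 lay under (6.02%) and 1 above (5.50%), and in male hearts 2 of 22 lay under (5.40%) and 0 above (5.23%). No probe set of the 10 genes was separated in the same direction in both sexes of a tissue.

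Nup50 encodes a nucleoporin that takes part in nuclear import through importins, and it gave the smallest p among the 10 genes. In livers of males Nup50 (probe set 1450722_at, log2 intensity) read 3.67, 3.63 and 3.78 in KO pools, against 4.16, 3.94 and 4.18 in WT pools. Female KO livers had 3.82, 3.31 and 3.85 for Nup50, and female WT livers had 3.87, 3.85 and 3.94. All KO pools were below all WT pools in males, and in females KO pool 12 lay between WT pools 8 and 7 while KO pool 11 was the lowest of the 12 livers. The difference was -0.40 (95% interval -0.67 to -0.13) in males and -0.23 (95% interval -0.50 to 0.043) in females. Without KO pool 11 the female value was -0.052. Averaged over the sexes the difference was -0.31 (95% interval -0.50 to -0.12), or 1.24-fold lower in KO, with a limma adjusted p of 0.193 that did not pass. Its other probe sets, 1428328_at and 1422719_s_at, gave -0.25 and -0.16 in male livers and -0.10 and 0.029 in female livers. In male livers the erythroid list (3 of 4 genes measured) was higher in KO, at 4.24 to 4.31, than in WT, at 4.06 to 4.16, and Eif2s3y was lower in every male KO liver pool, at 3.08 to 4.46 in KO and 4.73 to 5.18 in WT. The part of either was not tested.

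For Nup50, the 3 female KO heart pools were at 4.02, 4.01 and 4.01 and the 3 female WT pools at 3.83, 4.18 and 4.06. Nup50 values were 4.20, 3.93 and 4.36 in male KO hearts and 3.93, 4.20 and 4.17 in male WT hearts. The groups overlapped in both sexes. The heart difference of Nup50 was -0.012 (95% interval -0.26 to 0.24) in females and 0.062 (95% interval -0.19 to 0.31) in males. The liver effect of the KO less its heart effect was -0.46 in males (limma adjusted p = 0.569) and -0.22 in females (adjusted p = 0.95), so a difference between tissues was not shown.

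Fbln1 encodes fibulin, a glycoprotein of the extracellular matrix and of basement membranes. The female KO livers gave Fbln1 (probe set 1451119_a_at, log2 intensity) values of 3.14, 3.33 and 3.23, and the female WT livers 3.50, 3.53 and 3.42. Values of 3.42, 3.37 and 3.39 were measured for Fbln1 in male KO livers, against 3.44, 3.29 and 3.01 in male WT livers. The female KO pools were all below the female WT pools, whereas the male groups overlapped. The difference was -0.25 (95% interval -0.46 to -0.041) in female livers (limma adjusted p = 0.686) and 0.15 (95% interval -0.063 to 0.36) in male livers. The female effect minus the male effect was -0.40 (95% interval -0.70 to -0.10) with an unadjusted p of 0.0125 and an adjusted p of 0.986. The fibroblast list (8 of 8 genes measured) had overlapping means of 3.67 to 3.88 in female KO livers and 3.75 to 3.96 in female WT livers, while the hepatocyte list was 12.85 to 12.88 in female KO livers and 12.89 to 13.05 in female WT livers. The adipocyte list, under the median of all probe sets, was at 2.28 to 2.41 in female KO livers and 2.14 to 2.23 in female WT livers. The part of these lists in the Fbln1 values was not tested.

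With 8.05, 8.18 and 8.15, Fbln1 in female KO hearts stood beside 8.24, 8.23 and 8.38 in female WT hearts. In hearts of males Fbln1 read 8.20, 8.21 and 8.12 in KO pools, against 8.21, 8.02 and 8.16 in WT pools. Female KO hearts were again all below female WT hearts, and the male groups overlapped. The heart differences were -0.16 (95% interval -0.34 to 0.018) in females and 0.049 (95% interval -0.13 to 0.23) in males, and neither passed. In female hearts 3 marker lists were also lower in every KO pool. The adipocyte list (3 of 5 genes measured) was furthest apart, at 3.83 to 4.67 in KO and 4.81 to 5.08 in WT, a difference of the means of -0.59. The smooth muscle list (4 of 4 genes) was at 5.91 to 6.21 in KO and 6.40 to 6.60 in WT (-0.40), and the erythroid list (3 of 4 genes) at 4.81 to 5.04 in KO and 5.13 to 5.37 in WT (-0.31). The cardiomyocyte list was slightly higher, at 13.15 to 13.18 in KO and 13.11 to 13.13 in WT. Their part in the Fbln1 values was not tested. The probe sets 1422540_at and 1439688_at of Fbln1 gave differences between -0.16 and 0.041 over the 4 comparisons.

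Atxn10 encodes ataxin-10, a protein needed for neuronal survival whose human gene carries an intronic repeat expansion in a form of spinocerebellar ataxia. It had 6 probe sets, more than any other member. Male KO livers had 6.90, 6.83 and 6.61 for Atxn10 (probe set 1438653_x_at, log2 intensity), and male WT livers had 7.30, 7.14 and 7.04. For Atxn10, the 3 female KO liver pools were at 7.12, 6.83 and 6.68 and the 3 female WT pools at 7.16, 6.70 and 6.92. Male KO livers were all below male WT livers, and the female groups overlapped. These are the male liver pools that also differed in the erythroid list and in Eif2s3y (3.08 to 4.46 in KO, 4.73 to 5.18 in WT), whose part was not tested. The difference on this probe set was -0.38 (95% interval -0.67 to -0.088) in males (limma adjusted p = 0.448) and -0.050 (95% interval -0.34 to 0.24) in females. On 1422576_at, which also had high intensities in liver, the female KO pools read 6.29, 6.22 and 5.65 and the female WT pools 6.31, 6.26 and 6.30. The difference on it was -0.34 in males and -0.24 in females, and without KO pool 12 the female value was -0.036. On 1456466_x_at the difference was -0.25 and 0.0082 in the same order.

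The other 3 probe sets of Atxn10 did not follow these. Their male liver differences were 0.048, 0.021 and 0.018, and 1431377_at and 1447920_at were under the tissue median of all probe sets in both tissues. The other one, 1450666_s_at, averaged 3.08 in male KO livers and 3.06 in male WT livers, above the median. The mean of all 6 was tested among the alternatives without a call.

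Atxn10 values were 8.34, 8.25 and 8.16 in female KO hearts and 7.93, 8.25 and 8.36 in female WT hearts. The male KO hearts gave Atxn10 values of 8.24, 7.92 and 8.07, and the male WT hearts 8.15, 8.15 and 8.23. The heart groups overlapped in both sexes. The differences were 0.072 (95% interval -0.16 to 0.31) in females and -0.10 (95% interval -0.34 to 0.13) in males. In male hearts the KO pools were all under the WT pools on the probe sets 1431377_at, by -0.14, and 1456466_x_at, by -0.13. The macrophage list (5 of 5 genes measured) also separated the male heart pools, at 5.97 to 6.14 in KO and 5.87 to 5.95 in WT. Its part was not tested. The liver effect less the heart effect was -0.47 for 1422576_at in males, the lowest value of the 22 probe sets, with a limma adjusted p of 0.428.

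Wnt7b encodes a secreted Wnt ligand with roles in lung and skeletal development. Values of 3.24, 3.30 and 3.52 were measured for Wnt7b (probe set 1420892_at, log2 intensity) in male KO livers, against 3.15, 3.14 and 3.14 in male WT livers. With 3.24, 3.21 and 3.55, Wnt7b in female KO livers stood beside 3.17, 3.50 and 3.19 in female WT livers. Male KO livers were all above male WT livers, whose 3 values almost coincided, and the female groups overlapped. The difference was 0.21 (95% interval -0.033 to 0.45) in males (limma adjusted p = 0.643) and 0.041 (95% interval -0.20 to 0.29) in females. The second probe set, 1420891_at, was under the tissue median of all probe sets and gave -0.0054 and -0.15. The erythroid list also separated the male liver pools, and its part was not tested.

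In hearts of females Wnt7b read 4.11, 4.23 and 4.15 in KO pools, against 4.29, 4.50 and 4.25 in WT pools. Male KO hearts had 4.29, 4.20 and 4.21 for Wnt7b, and male WT hearts had 4.13, 4.64 and 4.23. Female KO hearts were all below female WT hearts, opposite in direction to the male livers, and the male groups overlapped. The differences were -0.19 (95% interval -0.43 to 0.058) in females and -0.099 (95% interval -0.34 to 0.15) in males, with a limma adjusted p of 0.886 for the females. The adipocyte (3.83 to 4.67 in KO, 4.81 to 5.08 in WT), smooth muscle (5.91 to 6.21 in KO, 6.40 to 6.60 in WT) and erythroid lists (4.81 to 5.04 in KO, 5.13 to 5.37 in WT) separated the same female heart pools, and their part was not tested.

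**Figure D2:**
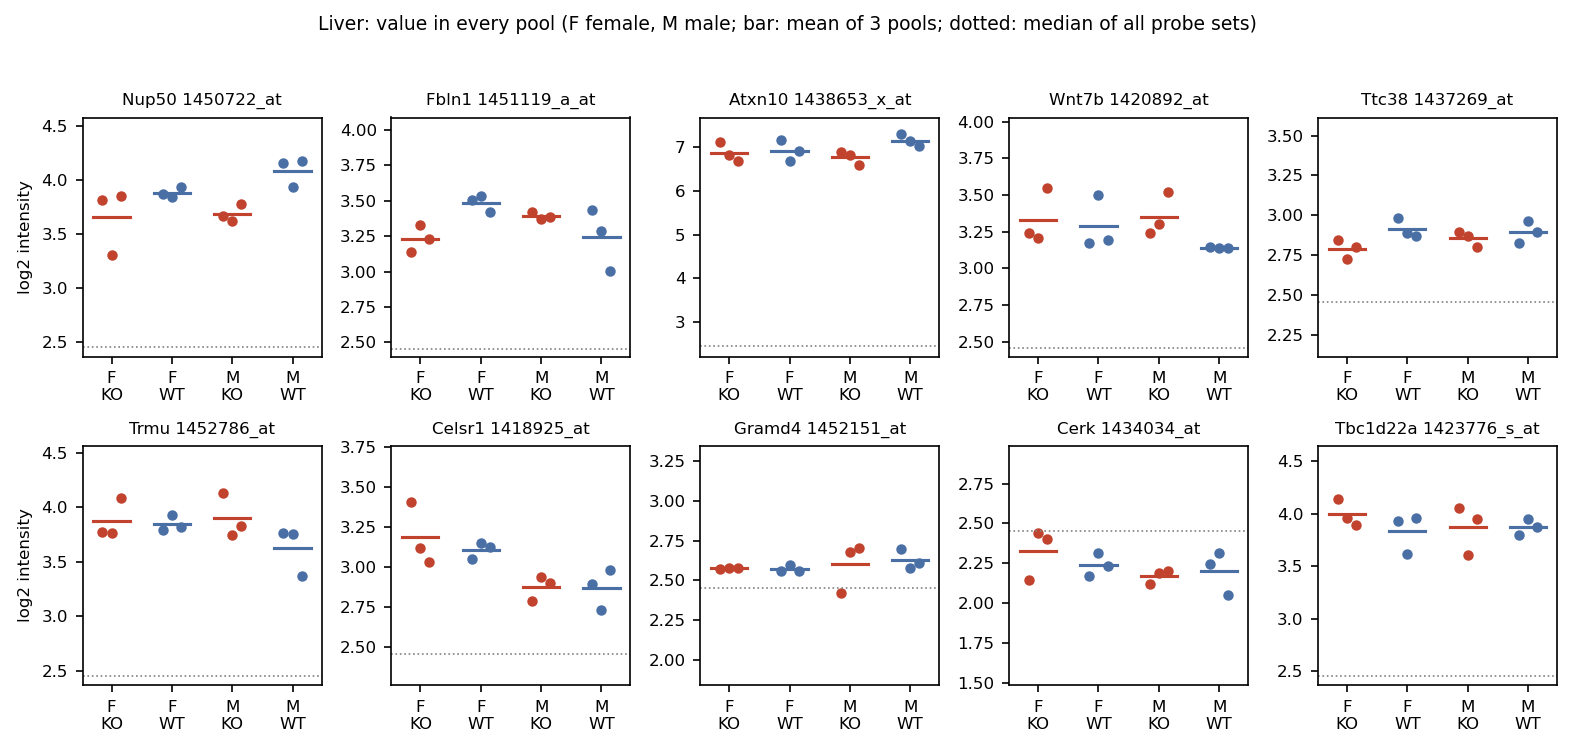
Log2 intensity in each liver pool (vertical axis) for the most intense probe set of each of the 10 flanking genes, in female KO, female WT, male KO and male WT livers from left to right. Points are pools of 4 animals, bars are means of 3 pools, the dotted line is the median of all probe sets (2.45), and the vertical ranges differ between panels. The KO pools of Nup50 and Atxn10 lie under the WT pools in males only, and those of Fbln1 and Ttc38 in females only.

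On the other side of Ppara, Ttc38 encodes a tetratricopeptide repeat protein. For Ttc38 (probe set 1437269_at, log2 intensity), the 3 female KO liver pools were at 2.84, 2.73 and 2.80 and the 3 female WT pools at 2.98, 2.89 and 2.87. Ttc38 values were 2.89, 2.87 and 2.80 in male KO livers and 2.82, 2.97 and 2.90 in male WT livers. Female KO livers were all below female WT livers and the male groups overlapped. The difference was -0.12 (95% interval -0.27 to 0.025) in females and -0.038 (95% interval -0.19 to 0.11) in males. The hepatocyte and adipocyte lists also separated the female liver pools, and their part was not tested. The female KO hearts gave Ttc38 values of 3.79, 3.81 and 3.64, and the female WT hearts 3.93, 3.72 and 3.79. Values of 3.92, 3.74 and 3.96 were measured for Ttc38 in male KO hearts, against 3.84, 3.71 and 3.94 in male WT hearts. The heart groups overlapped, with differences of -0.068 (95% interval -0.27 to 0.13) in females and 0.044 (95% interval -0.16 to 0.24) in males. Ttc38 is the nearest member to Ppara, at 3 gene positions, and its intervals reached from -0.27 to 0.24 over the 4 groups.

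Trmu encodes the enzyme that thiolates the wobble base of mitochondrial tRNAs, and loss of the human enzyme causes infantile liver failure. With 3.77, 3.77 and 4.08, Trmu (probe set 1452786_at, log2 intensity) in female KO livers stood beside 3.79, 3.93 and 3.82 in female WT livers. In livers of males Trmu read 4.13, 3.75 and 3.83 in KO pools, against 3.76, 3.76 and 3.37 in WT pools. The groups overlapped in both sexes, and male WT pool 3 was the lowest of the 12 livers. The difference was 0.028 (95% interval -0.25 to 0.31) in females and 0.27 (95% interval -0.0060 to 0.55) in males (limma adjusted p = 0.594). Female KO hearts had 4.70, 4.88 and 4.97 for Trmu, and female WT hearts had 4.94, 4.90 and 4.96. For Trmu, the 3 male KO heart pools were at 4.74, 5.22 and 4.84 and the 3 male WT pools at 4.69, 4.88 and 5.20. The heart groups overlapped too, and the differences were -0.084 (95% interval -0.37 to 0.20) and 0.012 (95% interval -0.27 to 0.30) in females and males. The second probe set, 1430828_at, was under the tissue median in both tissues. On it the KO pools were all above the WT pools in female hearts, by 0.15. The adipocyte, smooth muscle, erythroid and cardiomyocyte lists also separated the female heart pools, and their part was not tested.

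Celsr1 encodes a cadherin of planar cell polarity. Celsr1 (probe set 1418925_at, log2 intensity) values were 3.41, 3.12 and 3.03 in female KO livers and 3.05, 3.15 and 3.12 in female WT livers. The male KO livers gave Celsr1 values of 2.79, 2.94 and 2.90, and the male WT livers 2.89, 2.73 and 2.98. Genotypes overlapped in both sexes, and all 6 female livers lay above all 6 male livers, with means of 3.15 and 2.87. The KO minus WT difference was 0.078 (95% interval -0.14 to 0.29) in female livers and 0.0065 (95% interval -0.21 to 0.22) in male livers. Celsr1 was 1 of the 22 probe sets with no overlap of the sexes in liver; over all probe sets the 6 female pools were all above the male pools for 0.908% and all below for 1.13%. In heart 0 of 22 were separated by sex, where 0.182% of all probe sets were higher and 0.218% lower in every female pool.

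Values of 3.04, 2.52 and 2.95 were measured for Celsr1 in female KO hearts, against 3.02, 3.35 and 2.78 in female WT hearts. With 2.82, 3.08 and 3.24, Celsr1 in male KO hearts stood beside 2.98, 2.78 and 2.74 in male WT hearts. The heart signal lay near the median of all probe sets, and the groups overlapped. The differences were -0.21 (95% interval -0.54 to 0.12) in females and 0.21 (95% interval -0.12 to 0.54) in males, and the female effect minus the male effect was -0.43 (95% interval -0.89 to 0.041). Without heart pools 4 and 10 that contrast was -0.64, where the smallest limma adjusted p of the 22 probe sets was 0.994.

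Gramd4 encodes a membrane protein with a GRAM domain, a lipid-binding fold. In livers of females Gramd4 (probe set 1452151_at, log2 intensity) read 2.57, 2.58 and 2.58 in KO pools, against 2.56, 2.60 and 2.56 in WT pools. Male KO livers had 2.42, 2.68 and 2.70 for Gramd4, and male WT livers had 2.69, 2.58 and 2.61. The 6 female pools lay between 2.56 and 2.60 with the genotypes interleaved, and the male groups overlapped. The difference was 0.0042 (95% interval -0.17 to 0.18) in females and -0.025 (95% interval -0.20 to 0.15) in males. The liver values, 2.42 to 2.70, lay near the 2.45 median of all probe sets, so a change could be missed there. For Gramd4, the 3 female KO heart pools were at 5.42, 4.61 and 5.48 and the 3 female WT pools at 5.14, 4.98 and 4.93. Gramd4 values were 5.06, 5.05 and 4.97 in male KO hearts and 5.21, 5.05 and 5.19 in male WT hearts. Female KO hearts held both the lowest and the highest of the 12 heart values, and the groups overlapped. The heart differences were 0.15 (95% interval -0.20 to 0.50) in females (0.43 without KO pool 11) and -0.12 (95% interval -0.47 to 0.23) in males.

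Cerk encodes ceramide kinase, which makes ceramide phosphate. The female KO livers gave Cerk (probe set 1434034_at, log2 intensity) values of 2.14, 2.44 and 2.40, and the female WT livers 2.17, 2.31 and 2.24. Values of 2.12, 2.19 and 2.20 were measured for Cerk in male KO livers, against 2.25, 2.31 and 2.05 in male WT livers. The liver values, 2.05 to 2.44, were all under the 2.45 median of all probe sets, so a change could be missed there, and the groups overlapped. The difference was 0.089 (95% interval -0.11 to 0.29) in females and -0.034 (95% interval -0.23 to 0.17) in males. With 5.59, 5.45 and 5.75, Cerk in female KO hearts stood beside 5.74, 5.55 and 5.65 in female WT hearts. In hearts of males Cerk read 5.47, 5.73 and 5.87 in KO pools, against 5.63, 5.42 and 5.39 in WT pools. The heart signal was far above the median, and the groups overlapped there too. The heart differences were -0.049 (95% interval -0.29 to 0.19) in females and 0.21 (95% interval -0.030 to 0.45) in males, where the limma adjusted p of 0.909 was the smallest of the 22.

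Tbc1d22a encodes a protein with the domain of GTPase-activating proteins for Rab GTPases and is the member farthest from Ppara on its side. Female KO livers had 4.14, 3.96 and 3.90 for Tbc1d22a (probe set 1423776_s_at, log2 intensity), and female WT livers had 3.93, 3.62 and 3.95. For Tbc1d22a, the 3 male KO liver pools were at 4.05, 3.60 and 3.95 and the 3 male WT pools at 3.79, 3.95 and 3.87. The groups overlapped. The difference was 0.17 (95% interval -0.099 to 0.43) in females and -0.0032 (95% interval -0.27 to 0.26) in males. Tbc1d22a values were 4.78, 5.04 and 4.81 in female KO hearts and 5.03, 4.66 and 4.88 in female WT hearts. The male KO hearts gave Tbc1d22a values of 4.76, 5.06 and 4.94, and the male WT hearts 4.95, 4.82 and 4.82. The heart groups overlapped as well, with differences of 0.020 (95% interval -0.22 to 0.26) in females and 0.056 (95% interval -0.18 to 0.29) in males. On its second probe set, 1451107_at, the 4 differences lay between -0.11 and 0.13.

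**Figure D3:**
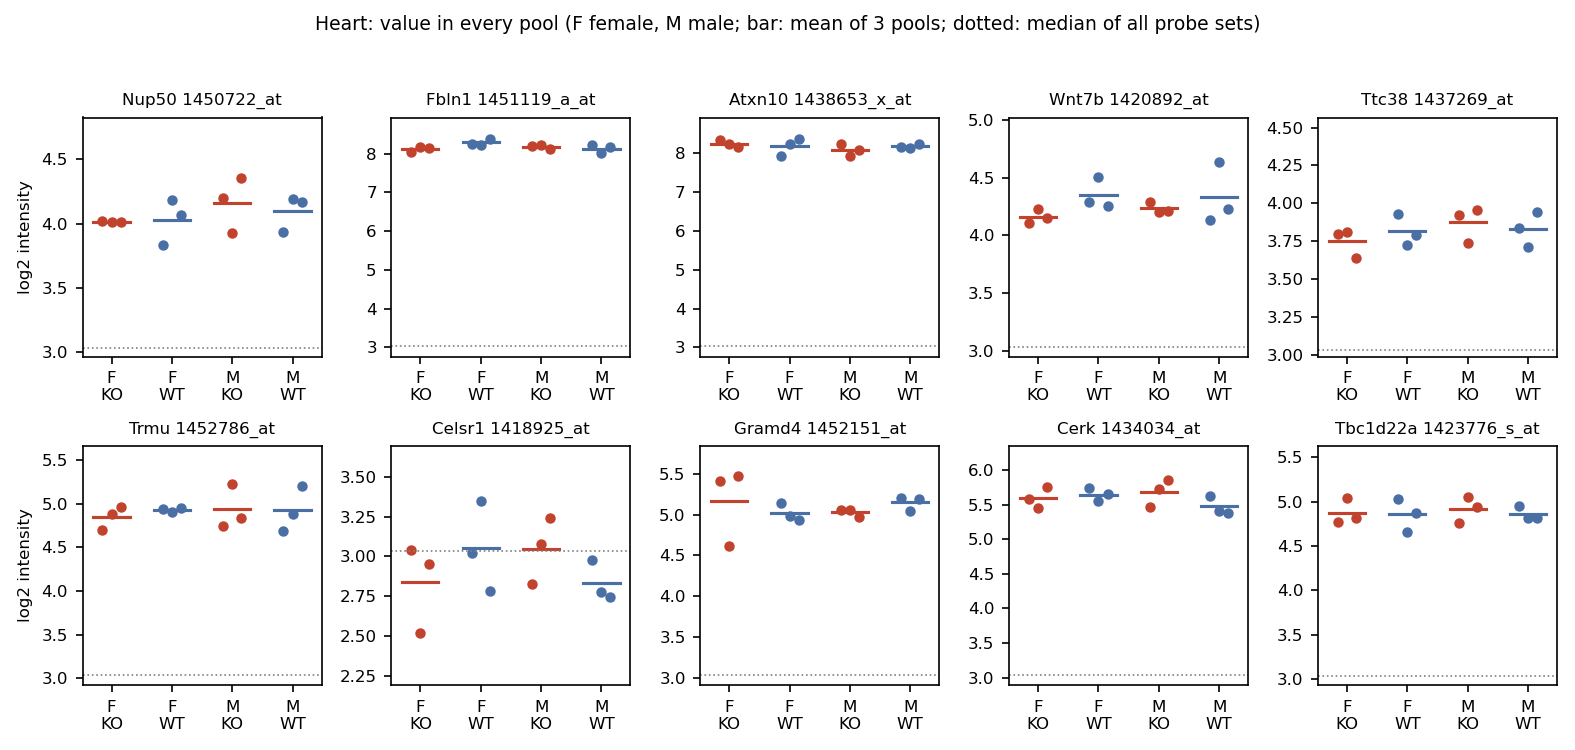
Log2 intensity in each heart pool (vertical axis) for the same 10 probe sets, in female KO, female WT, male KO and male WT hearts from left to right. Points are pools of 4 animals, bars are means of 3 pools, the dotted line is the median of all probe sets (3.03), and the vertical ranges differ between panels. KO and WT pools are apart only for Fbln1 and Wnt7b in females.

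Neither the sex nor the tissue changed the effect of the genotype on any member by a passing test. For the female less the male effect of the KO, 0 of 22 probe sets passed in liver, where 0.0311% of all probe sets did, and 0 of 22 in heart, where 0% did. For the liver less the heart effect, 0 of 22 passed in females, with 0.400% of all probe sets, and 0 of 22 in males, with 0.271%. Before adjustment, p was under 0.05 for 1 of 22 in the liver contrast of the sexes (Fbln1; 4.82% of all), 0 in that of heart (4.57%), 0 in the tissue contrast in females (6.41%) and 2 in that in males (Nup50 and Atxn10; 7.10%). These contrasts have wider errors, with intervals inside 0.5 log2 units for 12, 16, 15 and 13 of the 22 probe sets in the same order.

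Without heart pools 4 and 10, 0 of 22 probe sets passed in female, male and sexes-averaged hearts and in the contrast of the sexes, where 0.215%, 0.224%, 0.397% and 0% of all probe sets did. The female heart differences then ranged from -0.31 (Celsr1) to 0.19 (Trmu) and the male ones from -0.18 (Atxn10) to 0.33 (Celsr1). Unadjusted p under 0.05 came to 1 of 22 in female, male and sexes-averaged hearts, where 5.36%, 5.81% and 6.23% of all probe sets reached it, and to 2 of 22 in the contrast of the sexes, where 4.34% did.

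The genes most like the members in pattern were named for the probe set with the smallest sexes-averaged p in each tissue. Over the 12 livers Zfp729b, Adgrf5 and Ptafr correlated best with Nup50 (r = 0.89, 0.88 and 0.86). Over the 12 hearts Gpc1, Rhoa and Nup62 correlated best with 1430828_at of Trmu (r = 0.89, 0.89 and 0.88). This Trmu probe set had a heart mean of 2.46, under the heart median of 3.03. The brighter Trmu probe set, 1452786_at, gave a sexes-averaged heart difference of -0.036. The arrays share genotype, sex and normalization, and these correlations are the highest among all named probe sets, so they describe the pattern only.

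Among the other measured genes within 30 gene positions of Ppara, 11 genes with 13 probe sets, 1 probe set passed. This was 1435745_at of 5031439G07Rik, a gene that lies 25 positions before Ppara, next to Nup50. It passed in female liver and in liver with the sexes averaged, where 0.480% and 0.797% of all probe sets did. It also passed in the liver less heart contrast in females, where 0.400% did. It fell in female livers, where the KO pools read 3.30, 3.22 and 2.69 and the WT pools 4.07, 3.82 and 3.89, by a log2 difference of -0.86 (SE 0.16, limma adjusted p = 0.0312). In male livers the KO pools read 2.77, 2.95 and 3.28 and the WT pools 3.52, 3.57 and 3.78, again with every KO pool lower, and the difference of -0.62 did not pass (adjusted p = 0.211). It passed with all 24 arrays in one fit (adjusted p = 0.0303) and in none of the other 13 alternatives. Averaged over the sexes it fell by 0.74 (adjusted p = 0.00527). The hepatocyte list (12.85 to 12.88 in KO, 12.89 to 13.05 in WT) also separated the female liver pools. So did the adipocyte list (2.28 to 2.41 in KO, 2.14 to 2.23 in WT). In male livers the erythroid list did (4.24 to 4.31 in KO, 4.06 to 4.16 in WT). The part of these lists in the 5031439G07Rik values was not tested.

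In hearts the same probe set gave 0.049 in females and -0.018 in males, and the liver effect minus the heart effect in females was -0.91 (limma adjusted p = 0.0297). The second probe set of the gene, 1454786_at, gave -0.18 in female and 0.093 in male livers, with groups that overlapped, so the probe sets of 5031439G07Rik disagreed. The female liver call was lost when only the 6 compared arrays were fitted and without pools 7, 8, 9 or 11, with adjusted p up to 0.207, and the tissue contrast lost its call in 10 of 21 alternatives. Of the left-out pools, this was so for liver WT pools 7 and 9, liver KO pool 12, heart WT pools 7 and 8 and heart KO pools 10, 11 and 12, with adjusted p up to 0.117. The sexes-averaged liver call was kept in all 19 alternatives, and its difference was -0.39 when the probe sets of a gene were averaged.

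The other 12 probe sets of the neighbourhood did not pass in any comparison. Of these, Lncppara, a long noncoding RNA gene 5 positions before Ppara, gave 0.091, 0.020, 0.042 and -0.20 in female liver, male liver, female heart and male heart. Cdpf1, the next gene after Ppara, gave -0.16, -0.074, -0.0016 and -0.019. Pkdrej, 2 positions after Ppara, gave -0.030, 0.18, -0.33 and -0.063, with a heart mean of 2.99, under the heart median of 3.03. In female heart its limma p was 0.0074 before adjustment and 0.491 after. The lowest sexes-averaged value of these 12 probe sets was -0.42 in heart, for Gm19277, which like Pkdrej is named after its values were seen. Before adjustment, p was under 0.05 with the sexes averaged for 1 of all 13 probe sets in liver and 2 in heart. Over all probe sets, 8.83% and 6.64% did.

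**Figure D4:**
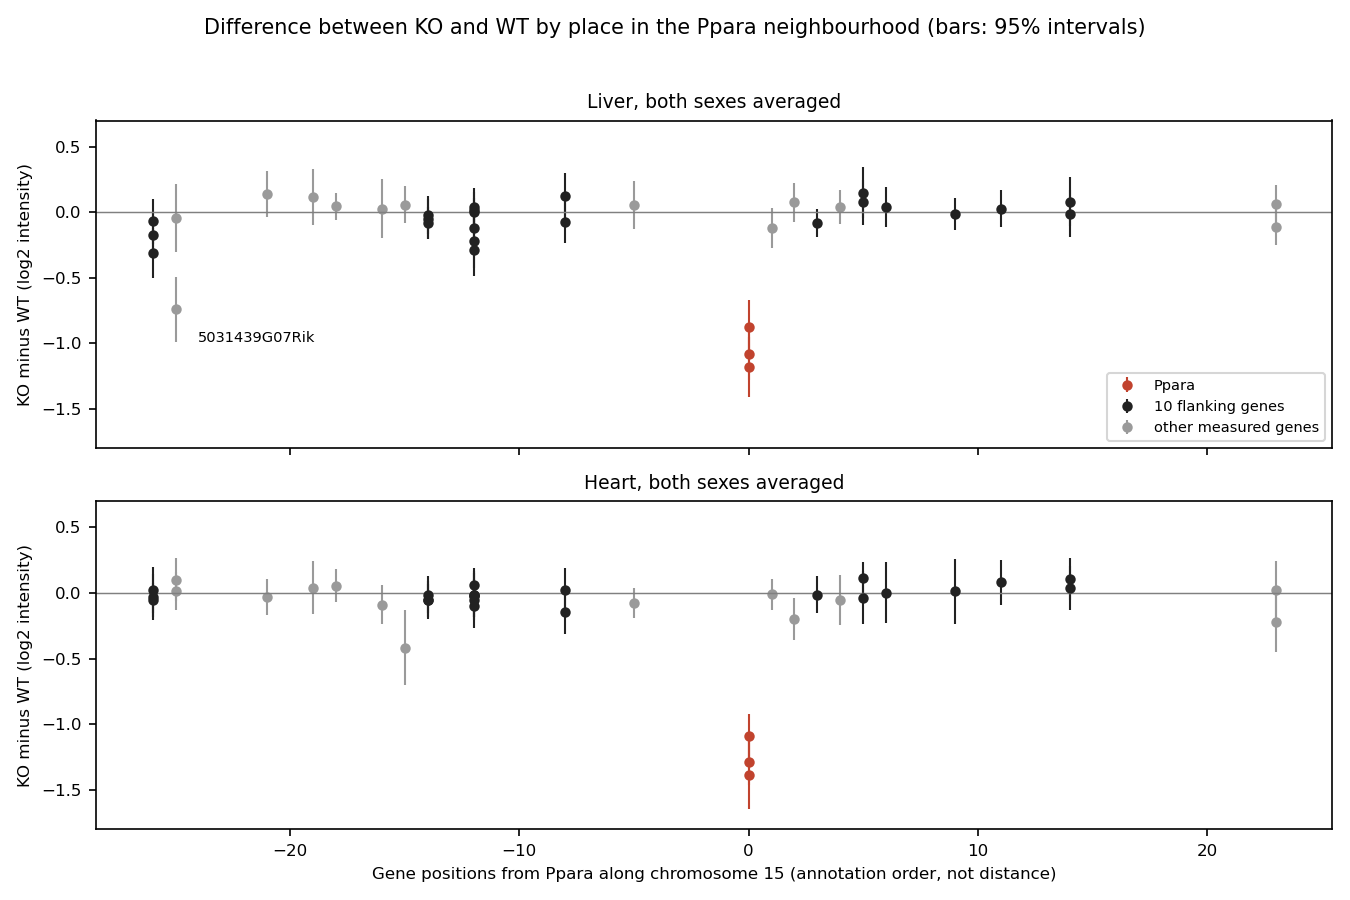
KO minus WT difference in log2 intensity, both sexes averaged (vertical axis), of every probe set within 30 gene positions of Ppara against the position of its gene (horizontal axis), in liver above and heart below. Red is Ppara, black the 10 flanking genes, grey the 11 other genes, and bars are 95% intervals. In liver 1435745_at of 5031439G07Rik, at -0.74, stands apart from the other neighbours, and in heart Gm19277, at -0.42, is the lowest and did not pass.

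Farther out the called share was set along the chromosome. Of the 11 probe sets within 10 positions 0 passed in the 6 comparisons of KO with WT, and of the 24 at 11 to 30 positions 1 (4.17%) passed in female and in sexes-averaged liver and 0 in the other 4 comparisons. On the other autosomes 0.556% of probe sets passed in female liver and 0.934% in sexes-averaged liver. Of the 131 probe sets at 31 to 100 positions, 0 passed in liver with the sexes averaged and 3 (2.29%) in heart, where 0.608% of those on other autosomes did. The 3 belong to Chkb and Ttll1 and are named after their values were seen. Chkb, choline kinase beta, 76 positions after Ppara and 2 from Cpt1b, fell by 0.63 in female and 0.57 in male KO hearts (limma adjusted p = 0.00173 and 0.00449). The annotation also lists a readthrough transcript of Chkb and Cpt1b, whose part was not tested. Ttll1, a tubulin polyglutamylase subunit 75 positions before Ppara, rose by 0.47 and 0.38 on 2 of its 3 probe sets in hearts with the sexes averaged (limma adjusted p = 0.0017 and 0.00615). Its probe set 1443193_at gave a difference of -0.10 there (95% interval -0.31 to 0.10, adjusted p = 0.916), with group means of 3.11 to 3.30, near the heart median of 3.03. The part of the marker lists that separated KO and WT heart pools was not tested for Chkb and Ttll1.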

How the data were processed

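RNA of 24 tissue pools was hybridised to Affymetrix mouse genome arrays with 45101 probe sets. The deposited values are log2 intensities from robust multi-array averaging (RMA), per the submitters' processing notes; no version is stated. Sorted values nearly coincided within a tissue but differed between tissues, so each tissue was taken as normalized apart. The arrays were compared pairwise and 0 pairs were identical.

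Genes came from the supplied probe table, which gave 1 gene for 34945 probe sets, several for 932 and none for 9160; 64 control probe sets were left out. Every other probe set was tested with limma 3.58.1 in R 4.3.3 (lmFit, eBayes, two-sided, Benjamini-Hochberg over 45037 probe sets, threshold 0.05) in a cell-means model, over the 12 arrays of a tissue, or all 24 for liver minus heart. In all, 10 comparisons were made, and no filter on dim probe sets was applied. Intervals are limma's 95% intervals of a single probe set and were not adjusted. A difference is KO minus WT on the log2 scale. Precision is limited by the number of arrays.

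The members and lists were chosen with earlier results of these data known. For each member the probe set with the highest mean over the 24 arrays was given pool by pool. Other genes within 30 gene positions were named where they passed, and the 3 best correlated genes were named for 1 probe set in each tissue. Figures were drawn with matplotlib 3.10.9. The fit was tested on simulated data. Alternatives were renewed quantile normalization, centring on array medians, a trended and robust variance, only probe sets above the median level, the mean of a gene's probe sets, no _s_at, _x_at or _a_at probe sets, other sets of arrays in the fit, each pool left out in turn, heart pools 4 and 10 left out, and the pool number as a block.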

Additional observations from a re-analysis of the deposited data

Results flagged for a closer look

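The KO effect on 1435745_at of 5031439G07Rik, the gene next to Nup50, differed between tissues in females by the test of the difference itself. The liver effect minus the heart effect was -0.91 (limma adjusted p = 0.0297), and it was -0.60 in males (adjusted p = 0.393). The female call was lost in 10 of 21 alternatives, with adjusted p up to 0.129. The second probe set of the gene, 1454786_at, gave -0.23 for the same contrast in females (adjusted p = 0.962). On 1435745_at the 6 KO pools in liver were all below the WT pools of their sex, and in heart the groups overlapped. The part of the marker lists that separated the same liver pools was not tested.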

How the results depend on the processing

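Over all alternatives tried, the count of flanking probe sets that passed stayed at 0 in each of the 10 comparisons, 178 counts in all. The smallest adjusted p of a flanking probe set came to 0.0774, for liver with the sexes averaged and all 24 arrays in one fit. Signs were less stable, since 107 of 1742 uncalled differences of the 10 most intense probe sets changed sign under an alternative. For Ppara 531 of its differences kept their side of the threshold and 2 lost it. One of its differences between tissues in females (1439675_at) came to pass under renewed quantile normalization, with an adjusted p of 0.0033. When the probe sets of a gene were averaged, the mean of Ttll1 was 0.31 higher in KO in female hearts and 0.25 with the sexes averaged, the opposite sign to its probe set 1443193_at taken alone (-0.020 and -0.10). The number of all probe sets called varied more. It was 79 to 384, against 216 as reported, in female livers, 83 to 279, against 155 as reported, in male livers, 95 to 205, against 140 as reported, in female hearts and 76 to 156, against 124 as reported, in male hearts.

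Liver and heart pools share numbers, and the labels do not state that equal numbers hold the same animals. Deviations from group means correlated between -0.20 and 0.13, with 2 of 12 pools over 0.1. Deviations in different tissues need not correlate even for the same animals, so this cannot decide the question. Since the labels are silent, the numbers were not taken as pairs. With the pool number as a replicate block, 0 of 22 flanking probe sets passed in the tissue contrast of either sex, and 5031439G07Rik kept its female call (adjusted p = 0.042). The background of dim probe sets and 3 pools in a group limit what could be seen, and no detection calls were used here.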
